A study of Danio rerio with 18 samples.

Results

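Forkhead box (fox) genes encode transcription factors that share a winged-helix DNA-binding domain, and the letter after "fox" names the subfamily. Some subfamilies are tied to a tissue: FoxA proteins open chromatin in endoderm and the axial midline, FoxI proteins specify placodes and ionocytes, and FoxJ1 switches on the genes of motile cilia. Others act in most cells, such as FoxM1 in mitosis, FoxO proteins under insulin signalling, and FoxK and FoxP proteins. The zebrafish embryo starts with RNA laid down by the mother, and its own genome becomes broadly active only in the blastula, so embryos at the 128-cell stage hold mainly maternal RNA.

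The genes described here are those whose symbol is "fox" followed by a letter and a digit, case ignored, except foxh1 and foxd3. They are 60 of the 32521 gene identifiers in the count files, with 55 distinct symbols. Of these identifiers, 25 carry a symbol in capitals, many without the letter that tells zebrafish copies apart, and all symbols are written here in lower case. For 5 symbols, 2 identifiers share the name and could not be assigned to an a or b copy, so the last digits of the identifier are added. Thus foxb1-53650 is ENSDARG00000053650 and foxb1-89042 is ENSDARG00000089042, foxk2-11609 is ENSDARG00000011609 and foxk2-30583 is ENSDARG00000030583, foxl2-42180 is ENSDARG00000042180 and foxl2-68417 is ENSDARG00000068417, foxn2-45105 is ENSDARG00000045105 and foxn2-55574 is ENSDARG00000055574, and foxo1-61549 is ENSDARG00000061549 and foxo1-99555 is ENSDARG00000099555. No member lacked reads in all 18 libraries.

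RNA was sequenced from whole zebrafish embryos of Tg(ddx4:ddx4-EGFP) females (strain ABTL), which carry an EGFP fusion of the germ plasm gene ddx4, and casper males. At the 1-cell stage the yolk received 0.7 ng in 1 nL of D16A-StCsm(EGFP), a type III CRISPR complex whose guide RNA is directed to the EGFP transcript (StCsm), or the likewise diluted Tris storage buffer alone (mock). Pools of 25 embryos were frozen at 3 stages: at 128 cells, 5 hours post fertilization (hpf), near the onset of gastrulation, and 24 hpf, when the main organs have begun to form. Each of the 6 groups (StCsm and mock at each stage) had 3 libraries, 1 from each of 3 independent injection experiments. Experiment numbers used here are the replicate numbers of the library titles, which were taken to match between groups. Offspring of 3 mating pairs were mixed and then divided at random between the injections, and both homozygous and heterozygous fish were used. In whole-embryo pools, fewer cells that express a gene and less RNA per cell cannot be told apart.

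The libraries held 11763787 to 21092691 reads assigned to genes, of which 8827 to 21484 were on forkhead genes. Levels are given as CPM, the reads of a gene per 1000000 reads of a library, on the TMM scale, which evens out composition between libraries. They are not divided by transcript length, so a gene is compared with itself across libraries and not with other genes. EGFP, the targeted transcript, stood in StCsm libraries at 59.2% to 83.6% of the mock level of the same experiment at the 128-cell stage at 56.6% to 76.6% at 5 hpf and at 107% to 163% at 24 hpf, where it had at most 36 reads per library. It was called lower at the 128-cell stage (edgeR adjusted p = 0.0186) and was not called at 5 hpf (adjusted p = 1.00) or 24 hpf (0.977). At 5 hpf its log2 difference was −0.57, with an unadjusted p of 0.0144 by edgeR. The paper, testing EGFP by a likelihood ratio test, reports a significant effect of the injection at 5 hpf. The second StCsm library at 24 hpf stood apart in some values. It had the highest of the 6 values for 19 of the 43 forkhead genes detected then, where any other library had at most 10. The lowest value was its own for 10, within the 1 to 13 of the others. Its summed skeletal muscle markers (11 genes) were 13941 CPM, against 17067 and 19385 CPM in the other StCsm libraries and 18004 to 19249 CPM in mock libraries. Its sums for neuron (899 CPM), skin and enveloping layer (24315 CPM) and maternal oocyte genes (6.08 CPM) were also the lowest of the 6. That for notochord and cartilage genes (116 CPM) was the highest. Its red blood cell sum of 974 CPM and germ plasm sum of 13.1 CPM lay within the range of the others. Marker genes moved with stage. In stage order, maternal oocyte genes summed to 2302 to 3692, 412 to 1003 and 6.08 to 16.8 CPM, germ plasm genes to 754 to 1008, 454 to 752 and 12.95 to 15.2 CPM, neuron genes to 9.36 to 17.2, 40.9 to 51.8 and 899 to 1123 CPM, skin and enveloping layer genes to 989 to 1349, 9688 to 14917 and 24315 to 30746 CPM, red blood cell genes to 0.272 to 2.17, 0.0849 to 1.23 and 713 to 987 CPM, notochord and cartilage genes to 0.579 to 1.01, 435 to 670.3 and 43.8 to 116 CPM and skeletal muscle genes to 3.68 to 38.02, 4.87 to 30.8 and 13941 to 19385 CPM. Of all these markers, 1 muscle gene had 0 reads in the mock libraries at 5 hpf.

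Forkhead genes were detected at 1 CPM or more in all 6 libraries of a stage in 18, 23 and 43 of 60 cases in stage order, or 30%, 38.3% and 71.7%, where the shares among all gene identifiers were 38.9%, 41.4% and 46.4%. Of the 60, 14 were detected at all 3 stages, 9 from 5 hpf on, 18 at 24 hpf alone, 2 at the 128-cell stage alone, 2 at both the 128-cell stage and 24 hpf, and 15 at no stage. By mean level, 13 members were highest at 128 cells, 10 at 5 hpf and 37 at 24 hpf. For 5, 4 and 27 of them the lowest library of that stage was above every library of the other stages, which is 8.33%, 6.67% and 45% of the 60, where 13.8%, 9.23% and 21.1% of all genes with a read had such a peak. As a share of library totals, the summed forkhead reads were 920 to 1133, 843 to 931 and 718 to 974 CPM without TMM in stage order, yet 639 to 741, 899 to 1005 and 988 to 1091 CPM on the TMM scale, so the order of the stages turned round with the scaling.

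**Figure D1:**
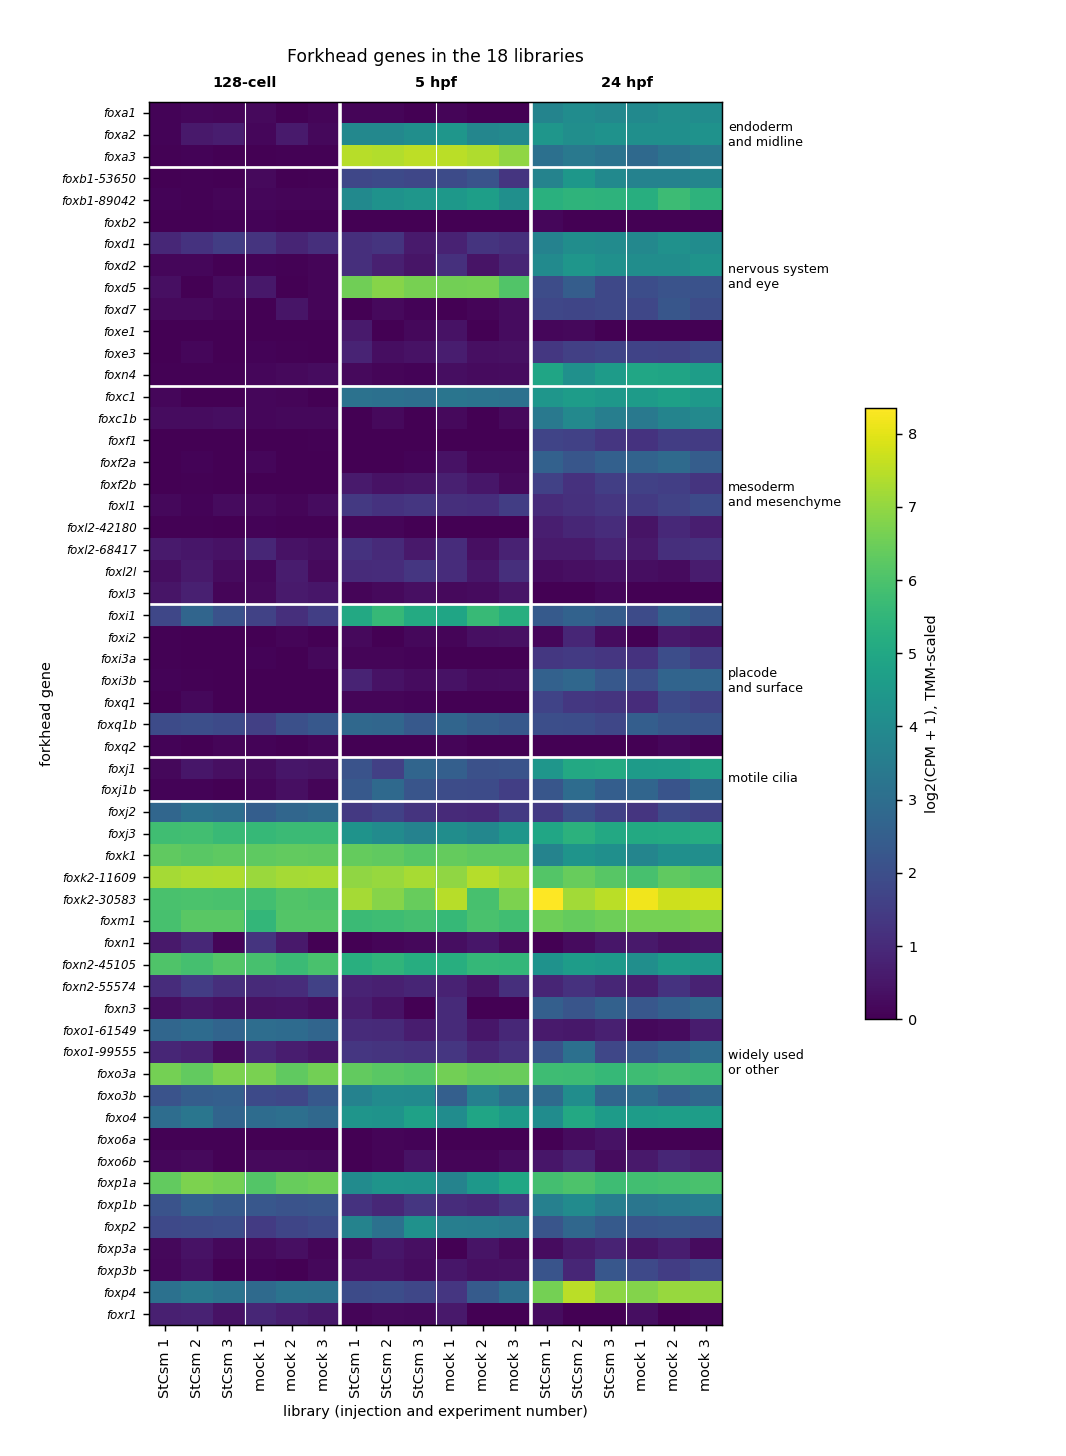
Levels of 56 of the 60 forkhead genes in the 18 libraries, as log2(CPM + 1) on the TMM scale. Rows are genes in role groups set mainly by subfamily letter, columns are libraries by stage, with StCsm left of mock. Of the 56 genes drawn, 18 were at 1 CPM or more in all 6 libraries at 128 cells, 23 at 5 hpf and 40 at 24 hpf.

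The first question was which forkhead genes changed between stages, asked in StCsm embryos and again in mock embryos, which share no libraries. From the 128-cell stage to 5 hpf, 33 of the 48 members tested changed in StCsm embryos (72.8% of all genes tested did): 22 rose (45.8%, where 36.4% of all genes rose) and 11 fell (22.9%, against 36.5%). In mock embryos 31 of 48 changed (72.7% of all genes did): 23 rose (47.9%, against 36.7%) and 8 fell (16.7%, against 35.9%). From 5 hpf to 24 hpf, 40 of 48 changed in StCsm embryos (78.5% of all genes did): 29 rose (60.4%, against 40.6%) and 11 fell (22.9%, against 37.9%). In mock embryos 41 of 48 changed (81.7% of all genes did): 31 rose (64.6%, against 41.7%) and 10 fell (20.8%, against 40%). Calls are at an adjusted p under 0.1 in edgeR's quasi-likelihood test over all genes tested, and the 2 steps share the 5 hpf libraries.

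These shares are a description of the tested members. The filter on low counts left 12 of the 60 untested over time, and 17 of the 48 tested in each injection passed it only through their 24 hpf libraries, so they had to be higher there. The median log2 change of tested members was 0.93 in StCsm and 0.48 in mock embryos at the first step (1.06 and 0.81 with genes at 0 reads in a group set at their bound) and 1.52 and 1.54 at the second, where the medians of all genes were −0.02, −0.01, 0.04 and 0.04.

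Both injections called 21 members higher and 7 lower at the first step, and 29 higher and 9 lower at the second. Of the 48 members tested in both, these are 43.8%, 14.6%, 60.4% and 18.8%, where 33.2%, 33.2%, 38.6% and 36% of all genes tested in both were called in the same way. When libraries were scaled by their totals, the median of all genes shifted by −0.61 in StCsm and −0.64 in mock embryos (log2) at the first step, and by −0.23 and −0.39 at the second. Under TMM, DESeq2 size factors and library totals alike, 17 of the 21 and all of the 7, 29 and 9 were called in both injections. The 4 lost were foxk2-30583, foxl2l, foxo1-99555 and foxq1b. The calls had the same direction in all 3 experiments, except foxo3b at the second step in StCsm embryos and foxk2-30583, foxl2l and foxq1b at the first step in mock embryos.

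**Figure D2:**
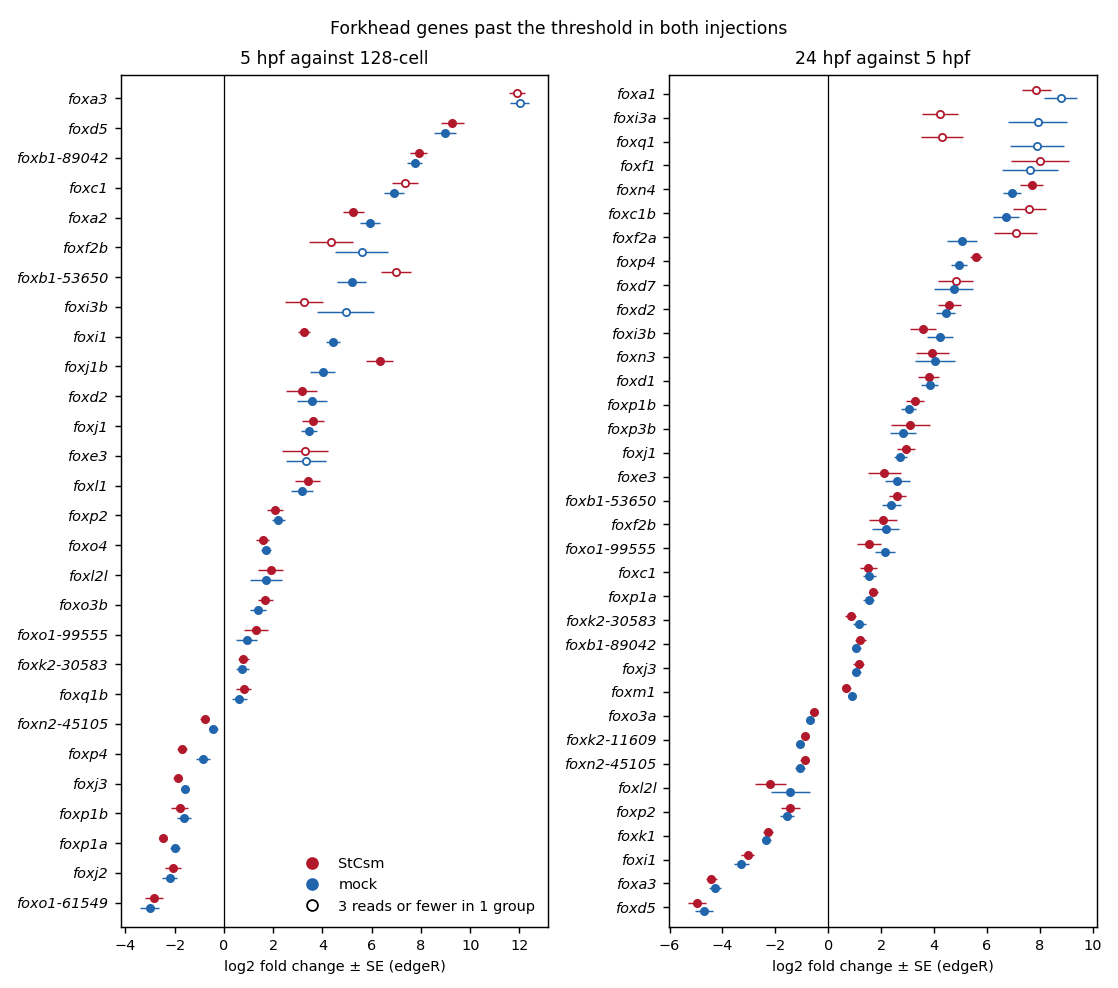
Log2 fold change ± SE for forkhead genes past the threshold in both injections, with the SE derived from edgeR's F statistic. The left side shows 5 hpf against 128-cell and the right side 24 hpf against 5 hpf, StCsm above mock in each row. Open points have 3 reads or fewer over 1 of the groups, where the fitted value depends on the prior count. The left panel holds 21 genes above 0 and 7 below, the right panel 26 and 9.

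The 3 FoxA genes were high at different stages. foxa3, which marks early axial mesendoderm and the hatching gland, had 0 to 0.0681 CPM at the 128-cell stage, 126 to 184 (median 172) at 5 hpf and 6.19 to 9.48 (median 8.08) at 24 hpf, and no library of a stage overlapped another stage's. Its 5 hpf level over that at the 128-cell stage was 4757-fold (95% counting interval 1627 to 23075, 6862 reads against 3) in StCsm embryos and 5227-fold (95% counting interval 1446 to 43172, 5734 reads against 2) in mock embryos. It then fell. Its log2 change (± SE here and below, derived from edgeR's F statistic) was −4.42 ± 0.21 in StCsm and −4.28 ± 0.22 in mock embryos (edgeR adjusted p = 3.73e-10 and 1.93e-09). foxa2, needed for floor plate, notochord and gut, had 0.0682 to 0.588, 13.2 to 19.8 and 16.5 to 19.9 CPM in stage order. It rose by 5.25 ± 0.43 in StCsm and 5.93 ± 0.41 in mock embryos at the first step and was not called at the second. foxa1, an endoderm and floor plate gene, was at most 0.152 CPM in the 12 libraries of the earlier stages and had 12.7 to 16.5 CPM at 24 hpf. That level was 278-fold (95% counting interval 76.4 to 2299, 487 reads against 2) that of 5 hpf in StCsm embryos and 577-fold (95% counting interval 103 to 22852, 461 reads against 1) in mock embryos. Together the 3 took 0.0246% to 0.0915%, 15.6% to 21.1% and 3.501% to 4.05% of the forkhead reads in stage order.

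Of the 14 genes of nervous system and eye, 11 were tested, and 5 of them rose at 5 hpf in both injections: foxb1-53650, foxb1-89042, foxd2, foxd5 and foxe3. The share over all genes tested in both injections was 33.2%. foxd5, a gene of the early neural plate and tail bud, had 0 to 0.455 CPM at the 128-cell stage, 67.03 to 113 (median 96.3) at 5 hpf and 2.504 to 4.58 (median 3.11) at 24 hpf. Like foxa3, it was high at 5 hpf alone. Its log2 change was 9.28 ± 0.45 in StCsm and 8.97 ± 0.45 in mock embryos at the first step (edgeR adjusted p = 4.45e-10 and 1.83e-09) and −4.95 ± 0.34 and −4.71 ± 0.34 at the second. foxb1-89042, of a family expressed along the neural tube and hypothalamus in mouse, rose at each step and had 0.03403 to 0.101, 14.6 to 24.8 and 37.2 to 51.6 CPM. Its log2 change was 7.91 ± 0.35 in StCsm and 7.75 ± 0.303 in mock embryos at the first step and 1.21 ± 0.21 and 1.06 ± 0.17 at the second. The first step stood on 5 reads in StCsm and 6 in mock libraries at the 128-cell stage. Its SE can therefore be smaller than counting error.

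At 24 hpf, 10 of the 11 were higher than at 5 hpf in both injections, and foxd5 was the exception. Among all genes tested in both injections, 38.6% were higher likewise. Genes such as foxn4 passed the filter on low counts only through 24 hpf and had to be higher there, so this count describes the tested genes. foxn4, which acts in retinal and spinal progenitors, had at most 0.249 CPM at either earlier stage and 17.4 to 29.6 CPM at 24 hpf, a log2 change of 7.68 ± 0.43 in StCsm and 6.93 ± 0.34 in mock embryos. It had 12 reads over all libraries at 5 hpf, 4 of them in StCsm embryos. The lens gene foxe3 had 1.56 to 2.56 CPM at 24 hpf. foxb2 and foxe1 were among those not tested over time. Over the stages the group took 0.246% to 0.412%, 9.86% to 14.04% and 14.6% to 16.7% of the forkhead reads.

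Of the 10 genes of mesoderm, vessels and mesenchyme, 8 were tested, and foxc1, foxf2b, foxl1 and foxl2l rose in both injections at 5 hpf. The share over all genes tested in both injections was 33.2%. foxc1, a gene of paraxial mesoderm and the anterior eye, had 0 to 0.102, 7.17 to 8.56 and 19.98 to 25.9 CPM. Its 5 hpf level was 200.4-fold (95% counting interval 67.9 to 977, 289 reads against 3) that of the 128-cell stage in StCsm embryos, and it rose by 6.904 ± 0.41 in mock embryos, on 4 reads at the 128-cell stage. By 24 hpf it had risen again, by 1.51 ± 0.32 in StCsm and 1.55 ± 0.24 in mock embryos. foxf2b, of a family found in the mesenchyme of vessel walls and gut, had 0 to 0.03403, 0.1498 to 0.665 and 1.31 to 2.08 CPM. At 5 hpf it was 33.3-fold (95% counting interval 5.17 to 1396, 16 reads against 1) the 128-cell level in StCsm embryos and at least 9.12-fold higher in mock embryos, where no 128-cell library had a read and the bound stands on a floor of 3 reads over the group. foxf1, a gene of gut-lining mesoderm, had no read in any of the 6 libraries at 5 hpf and 1.34 to 2.29 CPM at 24 hpf, at least 25.8-fold higher in StCsm and at least 20.5-fold higher in mock embryos.

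foxl2l, which marks germ cells on the female path in zebrafish, ran the other way at 24 hpf. It had 0.101 to 0.555, 0.432 to 1.47 and 0.193 to 0.549 CPM, and its second step was −2.19 ± 0.59 in StCsm and −1.43 ± 0.72 in mock embryos (edgeR adjusted p = 0.00378 and 0.0851). The mock call was lost without experiment 1 (adjusted p = 0.252), without experiment 3 (0.157) and with DESeq2 (0.165). The 5 members of this group that rose in both injections by 24 hpf were foxc1, foxc1b, foxf1, foxf2a and foxf2b. Among all genes tested in both injections, 38.6% rose likewise. Of these members, foxc1b, foxf1 and foxf2a passed the filter on low counts only through 24 hpf and had to be higher there, so the same limit holds. foxl2-42180 and foxl3 were not tested over time.

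Of the 7 genes of placodes, ionocytes and surface, 5 were tested. foxi1, which specifies the otic placode and ionocyte precursors, had 1.19 to 5.65 CPM at the 128-cell stage, 29.1 to 48.7 (median 35.2) at 5 hpf and 2.79 to 5.17 (median 4.26) at 24 hpf. It rose by 3.27 ± 0.25 in StCsm and 4.43 ± 0.29 in mock embryos and then fell, by a log2 change of −3.05 ± 0.25 and −3.297 ± 0.28 (edgeR adjusted p = 9.92e-08 and 2.17e-07). The ionocyte genes foxi3a and foxi3b went the opposite way at the second step. foxi3a had at most 0.124 CPM at the earlier stages and 1.34 to 2.897 CPM at 24 hpf, 20.9-fold (95% counting interval 6.79 to 104, 55 reads against 3) its 5 hpf level in StCsm embryos and at least 25.5-fold higher in mock embryos. foxi3b had 0.173 to 0.764 CPM at 5 hpf and 3.04 to 5.95 at 24 hpf. foxq1 had 1.09 to 2.703 CPM at 24 hpf, 22.04-fold (95% counting interval 7.18 to 109.98, 58 reads against 3) its 5 hpf level in StCsm embryos and at least 25.05-fold higher in mock embryos. foxi2 and foxq2 were not tested over time.

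Both genes of the motile cilia regulator FoxJ1 rose at 5 hpf. foxj1 had 0.136 to 0.427, 1.97 to 5.63 and 20.1 to 33.3 CPM, and rose by 3.62 ± 0.44 in StCsm and 3.45 ± 0.34 in mock embryos at the first step and by 2.95 ± 0.35 and 2.73 ± 0.26 at the second. foxj1b had 0 to 0.256, 1.95 to 6.25 and 3.48 to 6.67 CPM. Its second step was called in mock embryos (1.04 ± 0.36, edgeR adjusted p = 0.0192) and not in StCsm embryos (0.103 ± 0.35, adjusted p = 0.802).

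The 24 widely used or other members supplied 98.05% to 98.7%, 59.7% to 68.02% and 69.9% to 74.3% of the forkhead reads in stage order. At the 128-cell stage foxk2-11609, foxo3a, foxp1a, foxk1, foxm1 and foxk2-30583 together gave 75.7% to 77.9% of the forkhead reads. Transcript length enters each of these shares of reads, so they are no order of transcript levels. Of the 19 tested, 7 fell in both injections at 5 hpf: foxj2, foxj3, foxn2-45105, foxo1-61549, foxp1a, foxp1b and foxp4. Among all genes tested in both injections, 33.2% fell likewise. foxo1-61549, of the insulin-regulated FoxO family, had 5.52 to 6.88, 0.432 to 1.02 and 0.121 to 0.653 CPM, and its first step was −2.84 ± 0.37 in StCsm and −3.02 ± 0.39 in mock embryos (edgeR adjusted p = 1.11e-05 and 1.27e-05). foxj2 had 4.601 to 7.66, 0.951 to 2.06 and 1.46 to 3.01 CPM, with a first step of −2.08 ± 0.32 in StCsm and −2.21 ± 0.31 in mock embryos.

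Among those 7, foxj3, foxp1a, foxp1b and foxp4 fell at 5 hpf and rose at 24 hpf in both injections. The share of all genes that fell and then rose was not counted. foxj3 had 47.4 to 55.6, 11.999 to 19.9 and 29.9 to 40.1 CPM, with log2 changes of −1.88 ± 0.19 in StCsm and −1.58 ± 0.17 in mock embryos and then of 1.15 ± 0.19 and 1.05 ± 0.17. foxp4 had 6.37 to 9.33, 1.495 to 7.19 and 97.3 to 179.7 CPM. Its first step was −1.699 ± 0.21 in StCsm and −0.84 ± 0.29 in mock embryos. In mock embryos the stages overlapped (1.495, 4.24 and 7.19 CPM at 5 hpf against 6.37, 7.98 and 7.86 CPM at the 128-cell stage), and the call was lost without experiment 1 (edgeR adjusted p = 0.122) or experiment 2 (0.143). Its second step was 5.57 ± 0.23 in StCsm and 4.94 ± 0.31 in mock embryos. Leaving out the second StCsm library at 24 hpf left 29 members higher and 11 lower at that step in StCsm embryos.

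foxk1, whose mouse protein takes part in metabolic and autophagy control, had 73.9 to 81.03, 69.8 to 82.2 and 12.4 to 18.96 CPM. It was not called at 5 hpf under TMM (−0.06 ± 0.17 in StCsm and −0.0003 ± 0.15 in mock embryos) and was lower with library totals (−0.67 and −0.65). By 24 hpf it had fallen, with −2.27 ± 0.19 and −2.34 ± 0.16 (edgeR adjusted p = 1.03e-07 and 2.26e-08). The 2 foxk2 genes parted at 24 hpf. foxk2-11609 had 136 to 162, 123.4 to 171 and 59.7 to 84.1 CPM and fell at the second step, by a log2 change of −0.89 ± 0.15 in StCsm and −1.06 ± 0.13 in mock embryos. foxk2-30583 had 55.5 to 66.2, 59.6 to 173 and 145 to 326 CPM and rose by 0.85 ± 0.21 and 1.17 ± 0.25. It varied between experiments, with 151, 113 and 84.6 CPM in StCsm and 173, 59.6 and 103 CPM in mock embryos at 5 hpf, and 326, 145 and 178 CPM in StCsm and 291, 208 and 217 CPM in mock embryos at 24 hpf. Experiment 1 was the highest in each of these groups. Its first step (0.79 ± 0.21 and 0.75 ± 0.25) was 0.18 in StCsm and 0.105 in mock embryos with library totals and no longer called.

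foxm1, which drives mitotic genes, had 45.6 to 74.1, 47.4 to 61.02 and 83.2 to 104 CPM. It rose by 0.69 ± 0.15 in StCsm and 0.89 ± 0.15 in mock embryos at the second step. At the first it was called lower in StCsm embryos (−0.43 ± 0.15, edgeR adjusted p = 0.0229), a call lost with DESeq2 size factors (0.103), and not in mock embryos under TMM (−0.15 ± 0.15). foxp2, known for its part in human speech, was highest at 5 hpf. It had 1.72 to 2.94, 7.73 to 17.6 and 3.297 to 5.88 CPM, rose by 2.08 ± 0.34 in StCsm and 2.204 ± 0.26 in mock embryos and fell, with −1.43 ± 0.34 and −1.56 ± 0.27. foxo4 had 5.43 to 8.78, 15.6 to 28.8 and 15.6 to 32.2 CPM, rose by 1.57 ± 0.27 in StCsm and 1.72 ± 0.21 in mock embryos at 5 hpf and was not called at the second step. foxn1, foxo6a, foxo6b, foxp3a and foxr1 were not tested over time.

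Copies of a gene could differ in when they were highest. Of 6 pairs named with a and b, the foxf2 and foxi3 pairs were highest at 24 hpf in both copies, with every library above those of the earlier stages. The foxo6 and foxp3 copies also had their highest mean at 24 hpf, but foxo6a, foxo6b and foxp3a had 11, 68 and 73 reads in all 18 libraries, their stages overlapped and they were not tested over time. By mean level foxo3a was highest at the 128-cell stage and foxo3b at 5 hpf, but for each of them libraries of that stage overlapped those of another. foxo3a's first step was called lower in StCsm embryos (−0.41, edgeR adjusted p = 0.0326), a call lost with DESeq2 size factors (0.135). In mock embryos it was not called (−0.04, edgeR adjusted p = 0.829). foxo3a had 78.3 to 103, 67.8 to 95.4 and 47.6 to 56.7 CPM, with a second step of −0.55 ± 0.16 in StCsm and −0.68 ± 0.14 in mock embryos. foxo3b had 2.43 to 4.75, 4.82 to 15.4 and 4.83 to 16.02 CPM and rose by 1.68 ± 0.32 in StCsm and 1.37 ± 0.33 in mock embryos at the first step. Its second step was called lower in StCsm embryos (−0.70, edgeR adjusted p = 0.060) and not called in mock embryos (−0.40, adjusted p = 0.286). foxp1a was highest at the 128-cell stage and foxp1b at 24 hpf. foxp1a had 69.3 to 104, 12.3 to 30.8 and 53.01 to 64.7 CPM, with log2 changes of −2.47 ± 0.17 in StCsm and −1.98 ± 0.202 in mock embryos and then of 1.699 ± 0.17 and 1.53 ± 0.202. foxp1b had 3.41 to 5.07, 0.904 to 1.498 and 8.62 to 15.3 CPM, with log2 changes of −1.79 ± 0.34 in StCsm and −1.61 ± 0.29 in mock embryos and then of 3.27 ± 0.35 and 3.03 ± 0.29. Both foxp1 copies were thus lowest at 5 hpf. At 24 hpf every library was above all those of the 128-cell stage for foxp1b and below them for foxp1a.

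**Figure D3:**
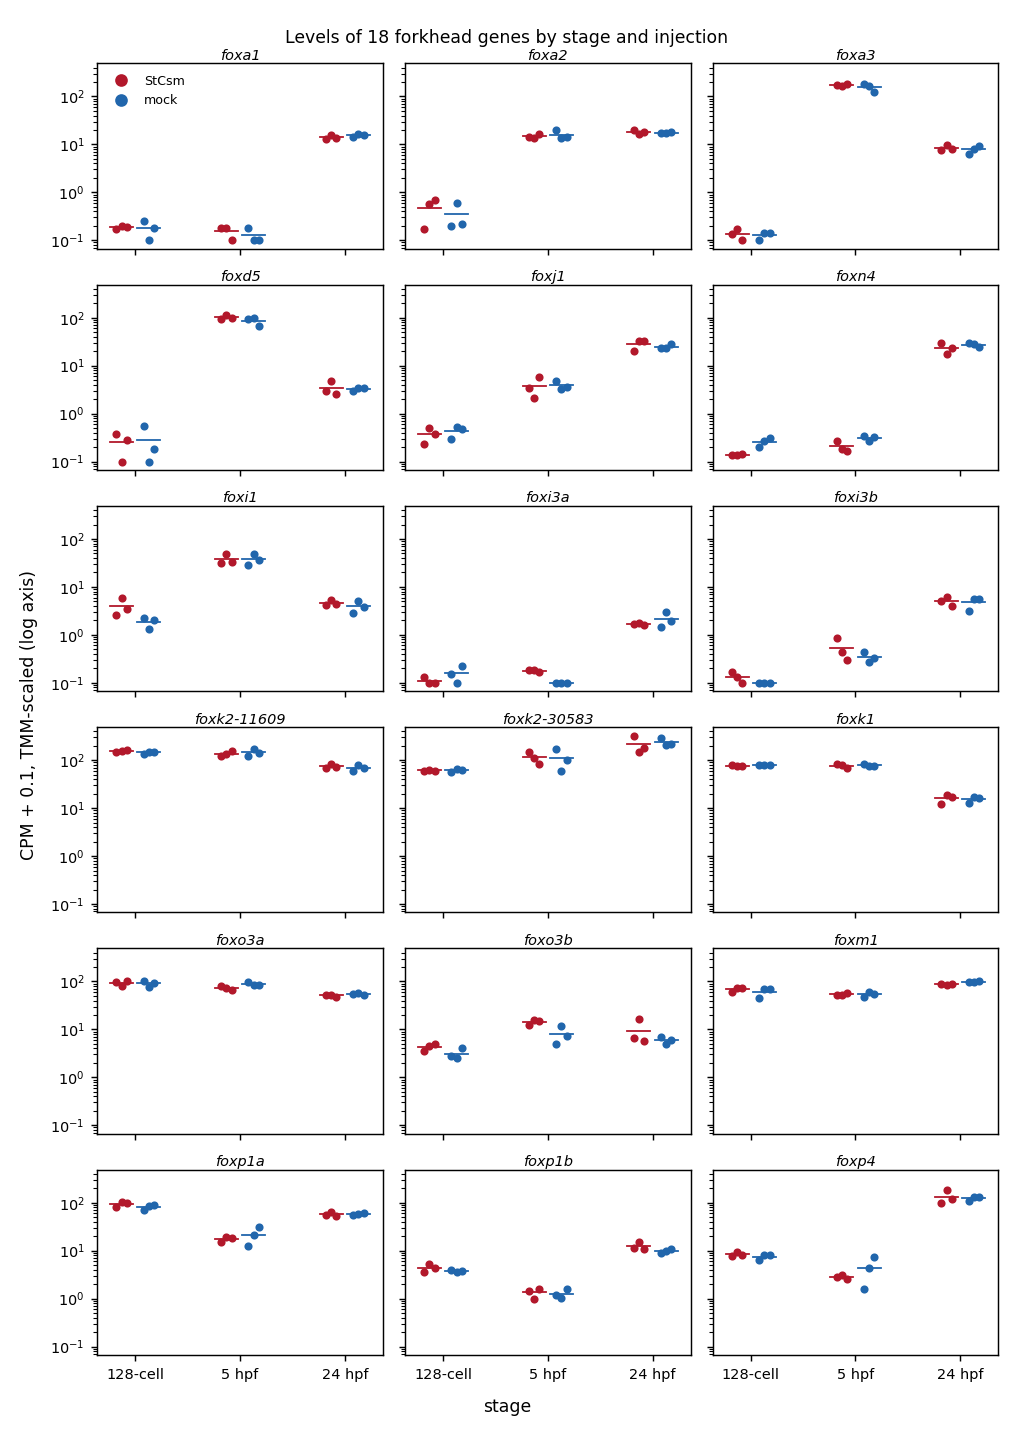
Levels of 18 forkhead genes by stage, as CPM + 0.1 on a logarithmic axis. Each point is a library, StCsm left of mock, and the bar is the mean of 3. foxa3 and foxd5 are high at 5 hpf alone, foxa1 and foxn4 at 24 hpf alone, and foxp1a, foxp1b and foxp4 are lowest at 5 hpf.

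Neighbouring genes shared a pattern in some places and not in others. In RefSeq's gene order for the assembly GRCz12tu, foxq1b, foxf2b and foxc1b follow each other with no other protein-coding gene between them. foxq1b had 1.97 to 3.97, 3.89 to 6.03 and 2.39 to 4.61 CPM, and foxc1b had 0.101 to 0.226, 0 to 0.166 and 9.35 to 14.3 CPM. With the values of foxf2b above, the first was present in every library, the second had 1 read before 5 hpf and the third was above 1 CPM at 24 hpf alone. foxf2a lies next to foxq1a in the same order, and the files list foxq1 with no copy letter, so that it was not matched to foxq1a with certainty. foxf2a had 0 to 0.101, 0 to 0.332 and 3.73 to 6.37 CPM and foxq1 0 to 0.136, 0 to 0.0849 and 1.09 to 2.703 CPM, so both were below 1 CPM before 24 hpf, and both rose there in both injections. So did 60.4% of the members and 38.6% of all genes tested in both injections. foxe3 and foxd2, also side by side, rose at each step in both injections. Other members, such as foxb1-89042, foxc1 and foxj1, did likewise, and the share of all genes that rose at both steps was not counted. For foxe3 the first step stood on 17 reads against 3 in StCsm and 14 against 2 in mock embryos. foxd2 had 0 to 0.102, 0.346 to 1.25 and 15.1 to 19.7 CPM. At the first step foxc1b was called lower in StCsm embryos on 2 reads at 5 hpf against 17 at the 128-cell stage (edgeR adjusted p = 0.0618). DESeq2 did not call it.

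The second question was whether the StCsm injection changed forkhead genes. No member passed the threshold at any stage by edgeR: 0 of 23 tested at the 128-cell stage, where 5.05% of all genes did (2.26% higher and 2.79% lower), 0 of 31 at 5 hpf (0% of all genes) and 0 of 45 at 24 hpf (0%). The target EGFP did not pass at 5 hpf either, so the lack of calls there does not show that forkhead genes were unchanged. At an unadjusted p under 0.05 by edgeR there were 5, 2 and 1 members. All genes tested gave 2897 of 15498, 131 of 15819 and 819 of 16986 in stage order. DESeq2 called none, but gave an adjusted p for only 8 of the 23 at the 128-cell stage. Among members at 1 CPM or more in all 6 libraries, 17 of 18, 21 of 23 and 41 of 43 had a fitted difference within 0.5 on the log2 scale, with a median SE of 0.13, 0.26 and 0.19 in stage order. With 3 libraries a group, an exact permutation test of a single gene cannot go below p = 0.1, or 0.25 when the libraries are permuted within the 3 experiments. The StCsm and mock libraries did not overlap for 1 of the 18 members at the 128-cell stage (foxi1, higher), for 3 of the 23 at 5 hpf (foxj1b and foxo3b higher, foxo3a lower) and for 4 of the 43 at 24 hpf (foxp1b higher, and foxl1, foxm1 and foxq1b lower). Of all genes at that level, 1.83%, 1.55% and 2.84% were higher without overlap in stage order, and 0.987%, 1.75% and 4.1% were lower.

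The test of whether the injection effect differed between stages passed for no member by edgeR: 0 of 33 tested for 5 hpf against 128-cell and 0 of 50 for 24 hpf against 128-cell (0% and 0.0823% of all genes), with 2 and 1 at an unadjusted p under 0.05. All genes tested gave 607 of 17590 and 1041 of 19444 at that level. DESeq2 called none, with an adjusted p for 12 of the 33 and 2 of the 50. At the first step, members called in 1 injection alone included foxl2-68417 higher and foxc1b, foxm1, foxn2-55574 and foxo3a lower in StCsm embryos, and foxf2a and foxp3b higher in mock embryos. With library totals, foxm1, foxn2-55574 and foxo3a were lower in both injections, and foxl2-68417 and foxf2a were not called. foxd1 (lower) and foxl2l (higher) were then called in StCsm embryos alone. At the second there were 5: foxo3b and foxq1b lower in StCsm embryos, and foxj1b and foxj2 higher and foxo1-61549 lower in mock embryos. With library totals none of these 5 was called in 1 injection alone. foxo3b, foxq1b and foxo1-61549 were then lower in both injections, and foxj1b and foxj2 were called in neither. For the second step the difference between injections was not tested directly.

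The differences nearest to the threshold were at the 128-cell stage. foxi1 had 2.45, 5.65 and 3.35 CPM in StCsm libraries (72, 166 and 74 reads), against 2.12, 1.19 and 1.903 CPM in mock libraries (42, 28 and 46 reads). All StCsm libraries were above all mock libraries. The fitted log2 difference was 1.097 ± 0.33 (edgeR adjusted p = 0.124), so it was not called. Experiment 2 carried much of it: without that experiment the difference was 0.52, adjusted p = 0.493. It passed without experiment 1 (1.53, adjusted p = 0.0514), without experiment 3 (1.21, adjusted p = 0.0994) and without the filter on low counts (1.12, adjusted p = 2.41e-05), all by edgeR. It did not pass without the experiment as a block (1.13, edgeR adjusted p = 0.987) or with all 18 libraries in 1 fit (1.06). At 5 hpf foxi1 differed by −0.02 ± 0.201 between injections.

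foxp1a had 80.3, 104 and 97.4 CPM in StCsm libraries at the 128-cell stage, against 69.3, 84.6 and 90.8 CPM in mock libraries, a log2 difference of 0.201 ± 0.06 (edgeR adjusted p = 0.117) with overlapping groups. It passed with library totals (0.22, adjusted p = 0.0898) and without the filter (0.22, adjusted p = 0.0488), by edgeR. It did not pass without the experiment as a block (edgeR adjusted p = 0.987), with all 18 libraries in 1 fit or with DESeq2 (adjusted p = 0.149). Nor did it pass when experiment 1, 2 or 3 was left out (edgeR adjusted p = 0.309, 0.334 and 0.234). foxo3b was higher in StCsm libraries in 3 of 3 experiments at the 128-cell stage (3.44, 4.46 and 4.75 CPM, against 2.68, 2.43 and 3.93 CPM in mock libraries). It was also higher in 3 of 3 at 5 hpf (12.1, 15.4 and 15.1 CPM in StCsm, against 4.82, 11.5 and 7.34 CPM in mock libraries). The log2 differences were 0.497 ± 0.18 and 0.91 ± 0.28, with unadjusted p of 0.01405 and 0.00887 by edgeR and adjusted p of 0.1499 and 1.00, so neither passed. At 24 hpf foxo3b had 6.45, 16.02 and 5.66 CPM in StCsm libraries, against 6.68, 4.83 and 5.95 CPM in mock libraries, and the difference of 0.59 ± 0.34 became −0.05 without the second StCsm library.

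At 5 hpf, foxj1b had 4.07, 6.25 and 3.62 CPM in StCsm libraries, against 2.82, 2.77 and 1.95 CPM in mock libraries. The groups did not overlap, and the log2 difference was 0.86 ± 0.32 (unadjusted p = 0.0246, adjusted p = 1.00, edgeR). At 24 hpf, foxl1, a gut mesenchyme gene in mouse, had 1.04, 1.24 and 1.52 CPM in StCsm libraries, against 1.6999, 2.12 and 2.66 CPM in mock libraries. These groups did not overlap either, and the log2 difference was −0.75 ± 0.33 (unadjusted p = 0.0452, adjusted p = 0.977, edgeR). foxp1b had 11.3, 15.3 and 10.8 CPM in StCsm libraries at 24 hpf, against 8.62, 9.56 and 10.6 CPM in mock libraries, a difference of 0.38 ± 0.19 (unadjusted p = 0.0749, adjusted p = 0.977, edgeR).

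**Figure D4:**
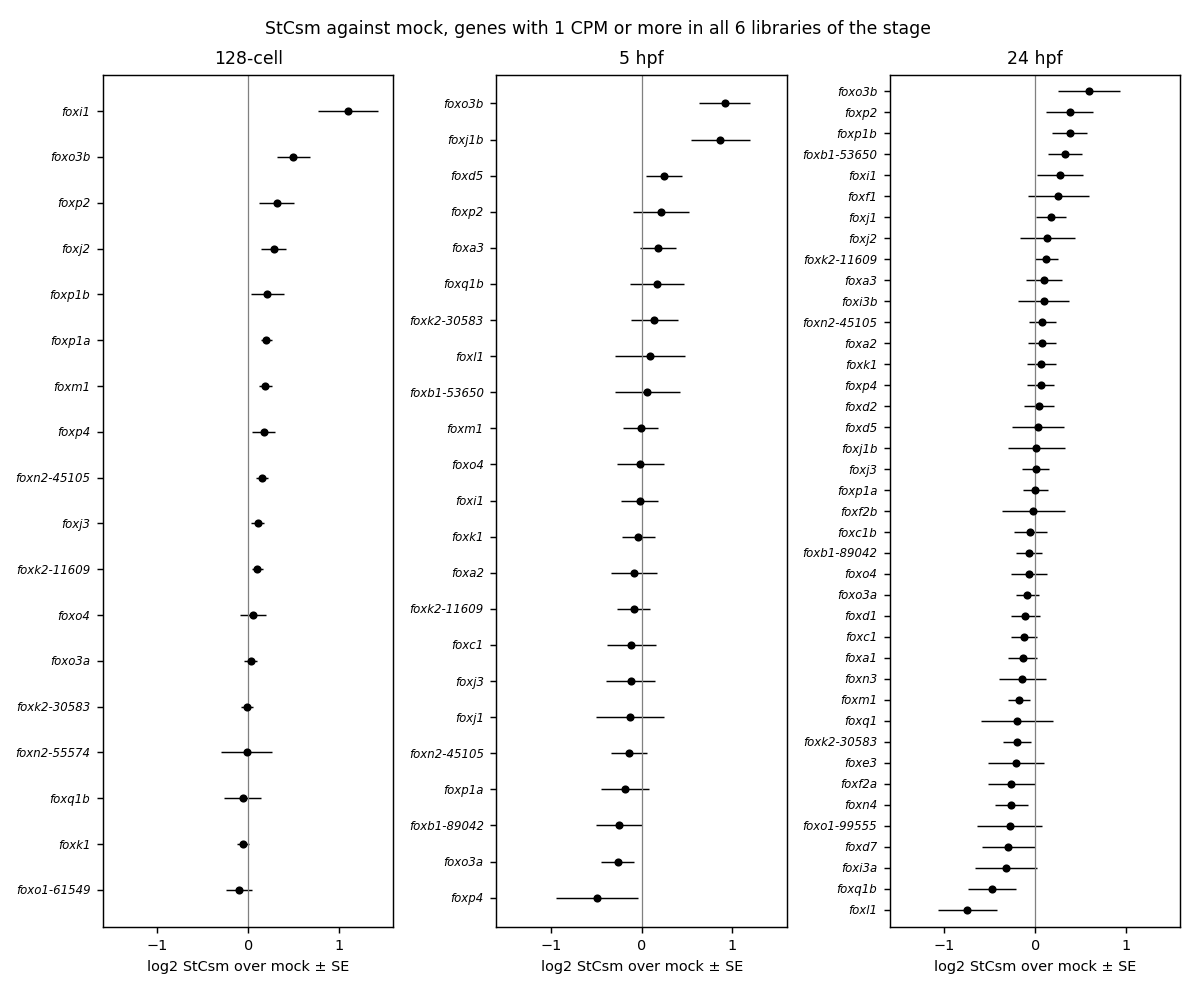
Log2 difference of StCsm over mock ± SE at each stage, with the SE derived from edgeR's F statistic. Drawn are forkhead genes at 1 CPM or more in all 6 libraries of the stage (18, 23 and 40 genes). None of them passed the threshold, and the widest differences were foxi1 at the 128-cell stage (1.097), foxo3b at 5 hpf (0.91) and foxl1 at 24 hpf (−0.75).

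Genes that act with or downstream of forkhead proteins were taken from 6 lists, of which only part of the symbols matched the files. Matched were 28 of 36 for cilia, 30 of 36 for mitosis and 21 of 35 for FoxA. For FoxI 16 of 30 matched, for FoxO 19 of 36 and for partners and regulators 24 of 42. Their counts stand beside those of all genes tested, of which 36.4% rose and 36.5% fell in StCsm and 36.7% rose and 35.9% fell in mock embryos at 5 hpf, and 40.6% rose and 37.9% fell in StCsm and 41.7% rose and 40% fell in mock embryos at 24 hpf. Of 28 matched genes of motile cilia, linked to FoxJ1, 27 were tested over time: 6 rose and 8 fell in StCsm and 6 rose and 10 fell in mock embryos at 5 hpf. At 24 hpf, when foxj1 rose again, 23 rose and 2 fell in StCsm and 22 rose and 2 fell in mock embryos, with median log2 changes of 2.69 and 2.87 (−0.29 and −0.33 at the first step) where those of all genes were 0.04 in each. Of the 30 mitotic genes linked to FoxM1, 11 rose and 11 fell in StCsm and 11 rose and 10 fell in mock embryos at 5 hpf (medians −0.02 and −0.05). At 24 hpf, when foxm1 rose, 2 of them rose and 21 fell in StCsm and 4 rose and 17 fell in mock embryos (medians −0.67 and −0.57). Of the endoderm and axial genes linked to FoxA, 17 were tested: 15 rose and none fell in StCsm and 14 rose and none fell in mock embryos at 5 hpf (medians 6.62 and 6.799), and 6 rose and 11 fell in StCsm and 6 rose and 10 fell in mock embryos at 24 hpf (medians −3.52 and −3.59). In the tests at each stage alone, 3, 13 and 14 of the FoxA-linked genes passed the filter on low counts in stage order. For the cilia genes the numbers were 16, 15 and 28. Genes that passed only through a later stage had to be higher there, so these counts describe the tested genes.

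Of the ionocyte and placode genes linked to FoxI, 5 of 13 tested rose and 2 fell in StCsm and 4 of 12 rose and 2 fell in mock embryos at 5 hpf, with medians of 0.04 and 1.75, or 1.06 and 0.87 with genes at 0 reads in a group at their bound. By 24 hpf, 10 of 13 rose and 3 fell in StCsm and 9 of 12 rose and 3 fell in mock embryos (medians 4.25 and 4.75). In the tests at each stage alone, 4, 5 and 13 of the FoxI-linked genes passed the filter, so the same limit holds. Of the FoxO target genes, 8 of 18 rose and 5 fell in StCsm and 8 of 17 rose and 6 fell in mock embryos at 5 hpf, and 8 rose and 7 fell in StCsm and 7 rose and 7 fell in mock embryos at 24 hpf (medians 0.43, −0.09, 0.17 and −0.05). Of 27 partners and regulators of forkhead proteins, 10 rose and 8 fell in StCsm and 13 rose and 9 fell in mock embryos at 5 hpf, and 7 rose and 16 fell in StCsm and 6 rose and 17 fell in mock embryos at 24 hpf (medians 0.13, 0.28, −0.43 and −0.49). Between injections, 1 of the 93 list genes tested at the 128-cell stage passed by edgeR (1.08%, where 5.05% of all genes did), and 0 of 104 and 0 of 129 at the later stages (0% of all genes at each). At an unadjusted p under 0.05 by edgeR there were 16, 5 and 4. All genes tested gave 2897 of 15498, 131 of 15819 and 819 of 16986. DESeq2 called 2, 0 and 0 list genes, but gave an adjusted p for only 53 of the 93 at the 128-cell stage. The share of all genes that DESeq2 called is not given here. The 1 list gene that passed by edgeR was that of the mitotic kinase aurkb (log2 difference −0.36 ± 0.07, edgeR adjusted p = 0.0335).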

How the data were processed

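Poly(A)-selected RNA was sequenced with UMI-bearing libraries, and the authors deposited 1 table of raw counts for every library. The submitters' processing notes name bcl2fastq 2.16.10, UMI-tools 1.0.0, cutadapt 2.4, STAR 2.7.2b, HTSeq 0.11.2, R 3.6.1, DESeq2 1.24.0 and the build GRCz11; the annotation release and strand setting of the counting are not given in the sources used here. After poly(A) selection, more RNA and a longer tail cannot be told apart. The 5 special rows stayed out of library totals (no feature 11.1% to 17.9%, several alignments 3.77% to 14.8% and ambiguous 0.669% to 1.70% of counts). The deposited normalized tables were not used.

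Counts were fitted with edgeR 4.0.16 in R 4.3.3 (filterByExpr by group, TMM, robust quasi-likelihood, Benjamini-Hochberg over all genes tested, threshold 0.1), with each stage alone for the injection, each injection alone over its 9 libraries for the stages, 12 libraries for each interaction, and the experiment number as a block, as in the study. For the tests over time, the filter asked for about 0.69 (StCsm) or 0.711 (mock) CPM in at least 3 of the 9 libraries, of whichever stage. The SE printed is the size of the log2 change divided by the square root of the quasi-likelihood F statistic. edgeR does not itself report an SE. Where a group held only a few reads, this SE can be smaller than counting error alone. The code was tested on simulated counts. Where a group held 3 reads or fewer, the ratio of summed reads is given with a 95% interval, or, at 0 reads, a bound against a floor of 3 reads over the group; these cover counting error only.

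Library titles give replicate numbers without stating that these match between groups. By assumption, same-numbered StCsm and mock libraries come from the same pool of embryos of an injection experiment. Their deviations from the group means correlated at 0.62 to 0.83 over 10151 genes at the 128-cell stage (other numbers −0.67 to 0.098), at −0.098 to 0.66 at 5 hpf (−0.76 to 0.68) and at 0.1995 to 0.54 at 24 hpf (−0.45 to 0.25). At 5 hpf same and other numbers thus overlapped. Between 128-cell and 5 hpf, same numbers gave 0.02 to 0.55 (other −0.56 to 0.36) in StCsm and 0.22 to 0.63 (−0.56 to 0.30) in mock embryos. Between 5 hpf and 24 hpf the values were −0.26 to 0.50 (−0.55 to 0.60) and 0.056 to 0.30 (−0.27 to 0.12). Replicates differed beyond sampling noise (chi-square per degree of freedom 9.11 to 99.96), so none was counted as a duplicate.

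The members, their role groups and the 6 lists were chosen with earlier results of these data known. Role groups follow the subfamily letter, with foxn4 and the foxj1 genes set by name, so a single member can act outside its group's tissue. Named genes are, at each stage, the 6 with the highest mean CPM, not divided by length; at each step, the 6 largest mock changes in each direction among those called in both injections; every member called between injections or, at a stage with none, the 2 with the smallest p; and a and b copies highest at different stages. Others with values, such as foxc1b, foxd2, foxe3, foxi3b, foxj1, foxn4, foxo4 and foxq1b, were chosen after their values were seen. Some members are counted but not reported by name or drawn here. Alternatives were DESeq2 1.42.0, its size factors, library totals, no filter, a threshold of 0.05, no block, all 18 libraries in 1 fit and leaving out each experiment. Leaving out the second StCsm library at 24 hpf was added after seeing the data.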

Additional observations from a re-analysis of the deposited data

How the results depend on the processing

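Between injections at the 128-cell stage, 0 members were higher as reported, against 1 with library totals (foxp1a), 3 without the filter on low counts (foxp1a, foxo3b and foxi1) and 0 to 1 when an experiment was left out (foxi1). With library totals, 13 members were lower at 5 hpf than at the 128-cell stage in mock embryos, where 8 were reported. The median of all genes shifted by −0.64 (log2) against TMM at that step, and which scaling is nearer the truth was not tested. The DESeq2 Wald test gave 7 in StCsm embryos, where 11 were reported, and lost foxc1b, foxm1, foxn2-55574 and foxo3a. edgeR with DESeq2 size factors also lost foxm1, foxn2-55574 and foxo3a (edgeR adjusted p = 0.103, 0.122 and 0.135). The cause was not tested beyond this. Of all calls at that step, 33.7% were higher in mock and 34.7% in StCsm embryos with library totals, against 50.6% and 49.9% with TMM. Without the replicate block every count of members was as reported (0 between injections and in the interactions, 22 and 11, 29, 23 and 8, 31 and 10 higher and lower over time), except 10 in place of 11 lower at 24 hpf in StCsm embryos, where foxo3b was lost (edgeR adjusted p = 0.161). The 54 values of named genes were tried under 554 alternatives, of which 543 kept the direction and the side of the threshold, 6 no longer passed, 5 passed newly and 0 changed sign. Many named genes were picked as the largest changes or smallest p, so this tally does not describe how stable calls were in general. With library totals, for example, foxk1 and foxk2-11609 became lower at the first step in both injections. Members with a few reads per library, among them the 12 not tested over time, are limited by depth.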
